A study of Mus musculus with 15 samples.

Results

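The response of small-colony cardiac fibroblasts to platelet-derived growth factor AB (PDGF-AB) at passage 5 was measured by setting 3 arrays of treated small colonies against 3 arrays of untreated small colonies, 6 of the 15 arrays of the study, all assigned by their sample titles. The cells were cCFU-F, cardiac colony-forming unit fibroblasts, which are stromal cells of the heart that grow as colonies when plated sparsely. They came from C57BL/6 mice of 12 weeks labelled male, from a SCA1+PDGFRα+CD31- sort, and all 6 samples shared this origin, the small colony size and the passage. The treated group received PDGF-AB at 50 ng/ml and the control group nothing. How long the cells had been treated, and whether the 3 samples of a group came from separate animals or cultures, was not stated. The p-values measure the spread between samples of a group, pooled over the groups of all 15 arrays, and this spread may be technical. The other 9 arrays held treated small colonies at passage 15 and untreated large colonies at passages 5 and 15.

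PDGF-AB is a dimer of the A and B chains, both made by platelets and many stromal cells. It binds the receptor tyrosine kinases PDGFRα and PDGFRβ, whose tails recruit SHC, PI3 kinase and phospholipase C gamma and pass the signal to RAS, ERK and AKT. Fibroblasts of the heart carry PDGFRα, and PDGF is known to make mesenchymal cells divide and move, and to change smooth muscle genes and matrix.

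The sex label did not match 2 sets of genes. Xist, the RNA of the inactive X chromosome, lay between 10.39 and 10.88 (log2 intensity, the unit of every level here) in the 6 arrays and was not called (adjusted p = 0.646). The 4 Y-linked genes tested lay between 2.24 and 3.34, a range that serves here as the level of a gene the cells do not carry. Of the sorting markers, Pdgfra was measured in both groups, Pecam1, which encodes CD31, was at 4.31 ± 0.07 without and 4.45 ± 0.05 with PDGF-AB (SD, n = 3; adjusted p = 0.17), and Ly6a, which encodes SCA1, was not tested because no probe set named it. Arrays of the same group correlated at 0.99745 to 0.99808 over genes and arrays of different groups at 0.98841 to 0.99074. No array stood apart.

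Each change below is the log2 level with PDGF-AB minus that without, ± its standard error in a limma fit over all 15 arrays, and a gene is called when its adjusted p (Benjamini-Hochberg over 19938 genes) is below 0.05. PDGF-AB changed 5772 genes (28.9%), of which 2143 (10.7%) were higher and 3629 (18.2%) lower. Most changes were small. Only 278 called genes (1.39%) changed at least 2-fold, 82 up (0.411%) and 196 down (0.983%). The arrays of the groups did not overlap for 8573 genes (43%). The direction went with the level, since 44.8% of the 9969 genes with a level no lower than the median were called, of which 1379 (13.8%) rose and 3089 (31%) fell, while of those below it 764 rose and 540 fell. The split also moved with the scaling. Rises were 37.1% of calls as deposited, 47.8% after arrays were centred on their medians (2927 rises, 3196 falls) and 49.8% after quantile normalization (2822 rises). The median change of all genes was 0.016.

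**Figure D1:**
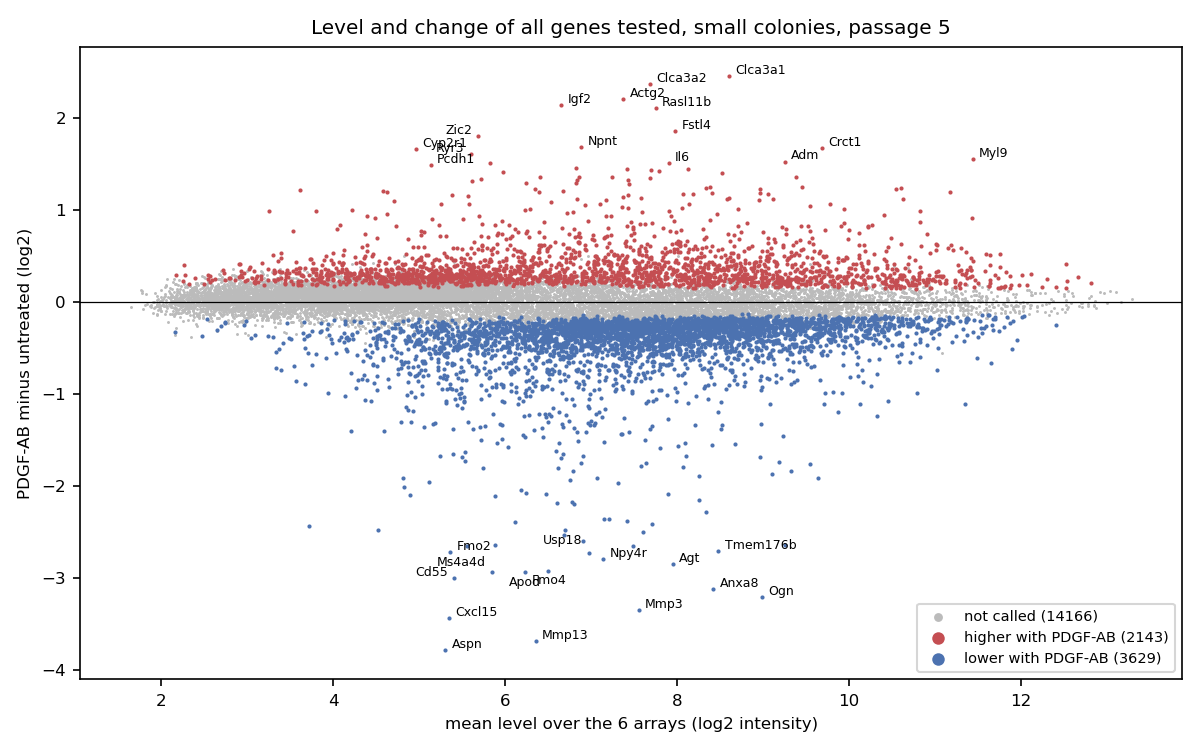
Mean level over the 6 arrays (log2 intensity, x axis) against the change with PDGF-AB (log2, y axis) for each gene tested, with genes called higher in red, called lower in blue and the 15 largest rises and falls named. The falls reach -3.79 (Aspn) and the rises 2.46 (Clca3a1).

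The 5 largest falls were in Aspn, Mmp13, Cxcl15, Mmp3 and Ogn. Aspn, which encodes the small matrix proteoglycan asporin, was at 7.18, 7.23 and 7.19 in the untreated arrays and at 3.43, 3.54 and 3.26 in the treated ones. The groups lay far apart, and 1 treated array lay within the range of Y-linked genes and the others just above it, so the difference is given without a fold (-3.79 ± 0.08, adjusted p = 2.8e-14). Mmp13, which encodes collagenase 3, went from 8.30, 8.04 and 8.26 to 4.53, 4.46 and 4.57. Every treated array lay below every untreated one, and the fall was 12.9-fold (-3.68 ± 0.08, adjusted p = 2.8e-14). Cxcl15, a neutrophil-attracting chemokine, fell 10.9-fold from 7.07 ± 0.13 to 3.63 ± 0.13, Mmp3 (stromelysin 1) 10.2-fold, and Ogn (osteoglycin) 9.25-fold.

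Genes outside the matrix were also among the 15 largest falls. Anxa8, a calcium-dependent membrane-binding annexin, fell 8.71-fold from 9.98 ± 0.04 to 6.86 ± 0.05 (adjusted p = 1.37e-14). Cd55, which protects cells from complement, fell 8.02-fold, the lipid carrier Apod 7.63-fold, and Agt, the precursor of angiotensin, 7.23-fold. Npy4r, a receptor for pancreatic polypeptide, went from 8.45, 8.53 and 8.64 to 5.78, 5.73 and 5.72. None of these groups overlapped. Ms4a4d (7.65-fold), the flavin monooxygenases Fmo4 (7.63-fold) and Fmo2 (6.59-fold), Usp18 (6.62-fold) and Tmem176b (6.54-fold) made up the rest.

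The 15 largest rises were smaller. Clca3a1, of the family that regulates calcium-activated chloride channels, was at 7.46, 7.48 and 7.18 without and at 9.77, 9.87 and 9.87 with PDGF-AB, a 5.5-fold rise (2.46 ± 0.08, adjusted p = 1.53e-12). Its near copy Clca3a2 rose 5.17-fold, and the probe sets of the pair may share signal. Actg2, the enteric smooth muscle actin, went from 6.30, 6.29 and 6.22 to 8.45, 8.48 and 8.49. The treated arrays of these genes lay well above the untreated ones. Igf2, the fetal growth factor, rose 4.4-fold, Rasl11b, a RAS-like small GTPase, 4.3-fold, Fstl4 3.63-fold and the zinc finger transcription factor Zic2 3.48-fold.

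Npnt, which encodes nephronectin, a basement membrane ligand of integrin α8β1, rose 3.2-fold from 6.04 ± 0.07 to 7.72 ± 0.17, and Itga8, the α8 chain of that integrin, went from 7.94 ± 0.02 to 8.52 ± 0.03 (adjusted p = 1.29e-05). Crct1 (3.19-fold), the vitamin D 25-hydroxylase gene Cyp2r1 (3.15-fold), the calcium release channel gene Ryr3 (3.05-fold), the myosin light chain gene Myl9 (2.94-fold), the vasodilator peptide gene Adm (2.88-fold), Il6 (2.85-fold) and the protocadherin gene Pcdh1 (2.79-fold) completed the group.

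**Figure D2:**
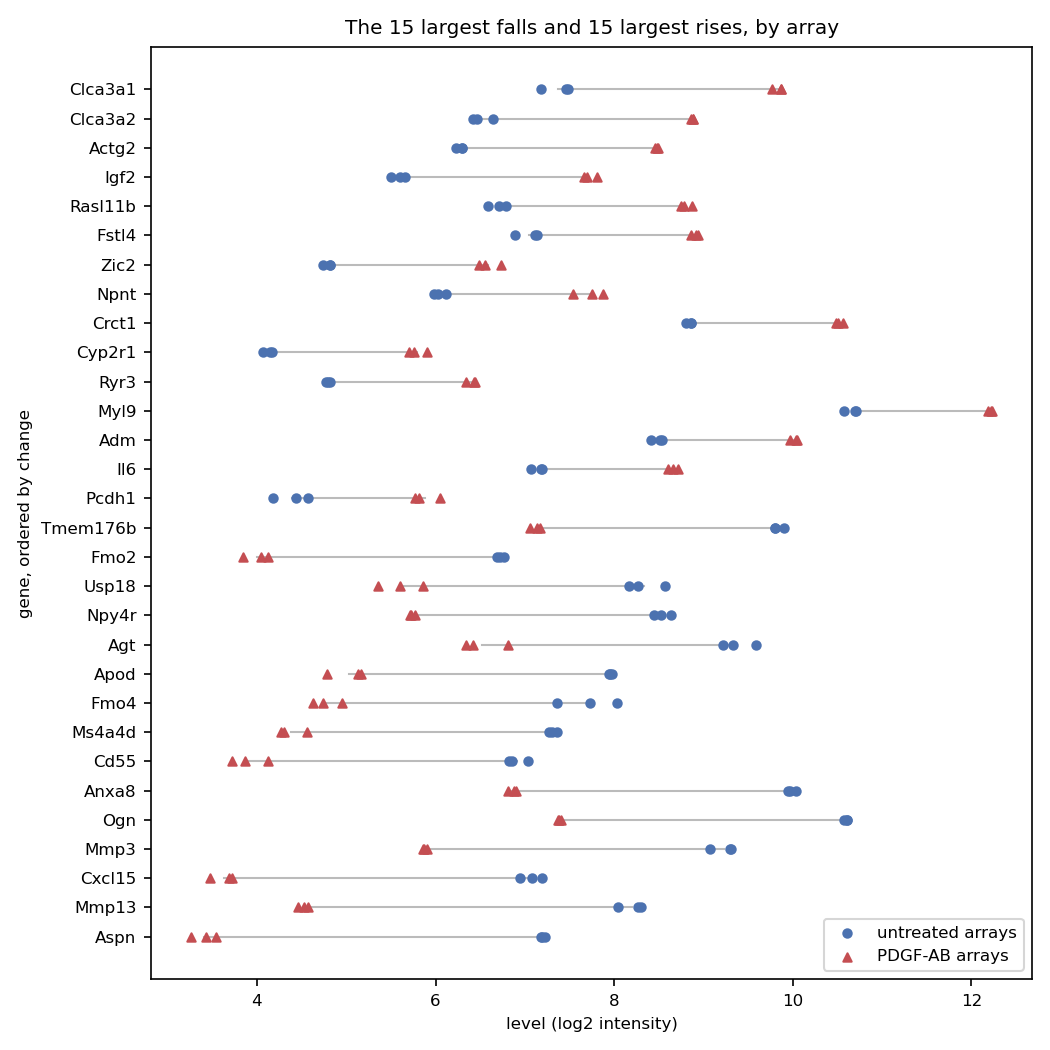
Level (log2 intensity, x axis) of the 15 genes with the largest rises and the 15 with the largest falls in each untreated array (circles) and each PDGF-AB array (triangles), joined at the group means by a grey line. The 3 arrays of a group sit close together for nearly all 30 genes and the groups do not overlap, which the choice of genes required.

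The genes of the PDGF system itself moved little. Of 7 ligand and receptor genes 4 fell and none rose (median -0.19). Pdgfra was at 6.63, 6.78 and 6.57 without and 6.23, 6.39 and 6.20 with PDGF-AB, so the groups did not overlap (-0.39 ± 0.08, adjusted p = 0.00218). Pdgfd, a ligand of PDGFRβ, fell by 0.54 ± 0.08 (adjusted p = 0.000152), and Pdgfrl, which encodes a receptor-like protein, fell by 0.35. Pdgfrb fell by 0.19 (adjusted p = 0.0221). This call was lost without untreated array 1 (adjusted p = 0.0966) or 2 (0.0686), without treated array 2 (0.0617) or 3 (0.08), with the compared arrays alone (0.0525) and with arrays centred on their medians (0.0568). Among the ligands that make up PDGF-AB, Pdgfa was at 9.95 ± 0.06 and 10.11 ± 0.03 (adjusted p = 0.0844) and Pdgfb at 5.59 ± 0.07 and 5.44 ± 0.13 (adjusted p = 0.295). Pdgfa was called higher after cyclic loess (adjusted p = 0.0118), quantile normalization (0.0159) or median centring (0.0268), with trend and robust variance moderation (0.0321) and among genes no lower than the median level (0.0388). Pdgfc, at 9.62 ± 0.02 and 9.65 ± 0.09, was not called either.

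Of 28 genes for the proteins that carry the receptor signal 9 fell and 1 rose (median -0.095). All 28 had a level no lower than the median, where 31% of all genes fell, so this share is that of the background. The falls were shallow, led by the PI3 kinase subunit gene Pik3cb (-0.38), the adaptors Shc1 (-0.37) and Gab1 (-0.32) and phospholipase C gamma, Plcg1 (-0.28). The genes that ERK induces and that dampen it were divided. The phosphatase genes Dusp1 (0.59 ± 0.06) and Dusp5 (0.39 ± 0.06), the RAS inhibitor gene Spred3 (0.50) and Phlda1 (0.63) rose. The ETS factor gene Etv1 fell by 0.77 ± 0.13 (adjusted p = 0.000248). With Etv1, 6 of 18 were lower. That is near the 31% of all genes with a level no lower than the median, where 15 of them lay. Only 1 to 3 were lower without untreated array 1 (2) or 2 (3) or treated array 2 (3) or 3 (1). After cyclic loess or quantile normalization 2 were lower.

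Immediate early genes, which growth factors switch on within minutes, were mostly higher. Of 27 tested 16 rose and 4 fell (median 0.25, against 0.016 for all genes). Egr2, a zinc finger transcription factor, went from 6.80, 6.86 and 6.87 to 8.13, 8.04 and 7.86, a 2.24-fold rise (adjusted p = 3.76e-08). Zfp36, which encodes an RNA-destabilising protein, went from 8.60, 8.53 and 8.53 to 9.57, 9.69 and 9.74. In both genes the lowest treated array lay above the highest untreated one. Fos, a partner in the AP-1 dimer, rose 1.93-fold, the antiproliferative gene Btg2 1.76-fold, Nr4a1 1.47-fold and Egr1 1.46-fold. The orphan receptor gene Nr4a2 (-0.56), Klf10 (-0.47) and Myc (-0.35, adjusted p = 0.00481) fell.

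Genes of cell division fell together. All 29 mitosis and spindle genes tested were lower with PDGF-AB (median -1.01), with changes from -1.65 to -0.41. Bub1, a spindle checkpoint kinase, went from 6.20, 6.29 and 6.20 to 4.57, 4.78 and 4.37, a 3.15-fold fall (adjusted p = 2.31e-09). Plk1, a kinase of mitosis, went from 7.59, 7.61 and 7.61 to 6.06, 6.21 and 5.98. The treated arrays of both genes lay below all untreated ones. Anln, which encodes the cleavage furrow protein anillin, fell 2.89-fold, topoisomerase Top2a 2.9-fold, and Kif23, a motor of the cleavage furrow, 2.53-fold. Mki67, the proliferation marker Ki-67, had the same value of 6.71 in the 3 untreated arrays and lay at 5.68, 5.66 and 5.47 in the treated ones. Of 36 replication and G1/S genes 30 fell and none rose (median -0.53), among them Mcm7 (2.49-fold) and Mcm6 (1.96-fold) of the replicative helicase, the chromatin assembly gene Chaf1b (1.91-fold), the clamp loader gene Rfc4 (1.87-fold) and the licensing factor gene Cdt1 (1.73-fold).

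The brakes and accelerators of G1 did not move one way. Cdkn2b, which encodes the CDK4 and CDK6 inhibitor p15, went from 8.33, 8.44 and 8.37 to 9.16, 8.99 and 9.04, a 1.6-fold rise (adjusted p = 2.25e-07). Cdkn2a, the locus of p16 and p19ARF, went from 7.73 ± 0.15 to 8.11 ± 0.13 (adjusted p = 0.00128). Ccnd1, cyclin D1, rose by 0.29 ± 0.05. Cdkn2c, which encodes the inhibitor p18, fell 1.94-fold, the pocket protein gene Rbl1 1.57-fold and Cdk4 1.21-fold. Of the 14 genes of this list 6 rose and 5 fell. Cdkn2b, Cdkn2a and Cdkn2c lie on chromosome 4 and Ccnd1 on chromosome 7. Genes of both chromosomes leaned up, with medians 0.20 and 0.18 above that of all placed genes at or above the median level. The part of this lean in the changes of these 4 genes was not tested. Cdkn1a was not tested. Of 16 p53 targets 3 rose, led by Btg2, and 4 fell, such as Plk2 (-0.55), Ddit4 (-0.45) and Sesn1 (-0.32). Of the 16, 15 had a level no lower than the median, where 13.8% of all genes rose and 31% fell. These shares are near that background.

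Promoter sequences of the RefSeq tables (GRCm38.p6, 250 bases before to 50 after each gene start) were searched for short motifs on both strands, each motif counted by itself. The cell cycle genes homology region, TTTGAA, lay in 18 of 24 mitosis genes with a promoter (75%), against 17.3% of 15614 tested genes with one, and CCAAT in 17 of 24 (70.8%, against 41.7%). An E2F core site lay in 13 of 30 replication genes (43.3%, against 3.48%). A match is a description of these letters and not evidence of binding. Each share, here and below, covers list members whether called or not, so it says nothing of the change with PDGF-AB. The 2 mitosis genes with the smallest adjusted p and a match are printed, with TTTGAA in capitals, to show it at the gene start.
Plk1 promoter, chr7:122159185-122159484, plus strand: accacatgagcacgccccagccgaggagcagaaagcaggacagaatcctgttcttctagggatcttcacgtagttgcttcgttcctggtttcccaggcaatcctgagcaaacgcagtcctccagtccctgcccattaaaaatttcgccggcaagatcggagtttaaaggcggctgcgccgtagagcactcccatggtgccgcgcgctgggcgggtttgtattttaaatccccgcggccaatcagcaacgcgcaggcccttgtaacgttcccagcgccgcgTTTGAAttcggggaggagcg
Kif23 promoter, chr9:61946750-61947049, minus strand: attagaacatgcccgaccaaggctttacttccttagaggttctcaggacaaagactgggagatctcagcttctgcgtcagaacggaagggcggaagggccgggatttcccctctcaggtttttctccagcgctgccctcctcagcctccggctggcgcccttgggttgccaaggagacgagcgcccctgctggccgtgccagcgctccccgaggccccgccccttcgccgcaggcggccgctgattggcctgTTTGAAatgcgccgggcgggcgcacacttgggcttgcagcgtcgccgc
The match starts 30 bases after the gene start in Plk1 and 2 bases after it in Kif23.

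Interferon response genes fell as a group. Of 35 tested 32 were lower and none higher (median -0.86). Oasl2, an antiviral 2'-5' oligoadenylate synthetase-like protein, went from 8.21, 8.22 and 8.21 to 5.68, 5.52 and 5.62, a 6.09-fold fall (adjusted p = 1.61e-13). Ifit1, which binds viral RNA, went from 8.94, 8.73 and 8.79 to 6.17, 6.26 and 6.06. In both genes the treated arrays lay far below the untreated ones. Usp18, the protease that removes ISG15 and damps the interferon receptor, fell 6.62-fold, Rtp4 4.23-fold, Trim30a 3.46-fold and Ifit3 3.34-fold. Ifit3b fell by 2.48 to a level within the Y-linked range, and its sequence is close to that of Ifit3, so the pair may share signal. Stat2 (-1.34) and Irf9 (-1.27), named after their values were seen, encode partners in the ISGF3 complex that binds interferon response elements.

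The interferons themselves were low in both groups. Ifnb1 was at 3.66 without PDGF-AB and changed by 0.06, Ifna4 by -0.06 and Ifng by -0.02, none of them called. Of 23 ligand, receptor and sensor genes 8 fell and 3 rose (5 fell without treated array 3). That is near the 31% and 13.8% of all genes with a level no lower than the median, where 18 of them lay. The double-stranded RNA receptor gene Tlr3 went from 8.00 ± 0.05 to 7.44 ± 0.09 (adjusted p = 2.86e-06), the interferon receptor chains Ifnar2 by -0.47 and Ifnar1 by -0.35, and Irf3 by 0.32. Genes of antigen presentation on MHC class I followed in part, with 7 of 12 lower and 2 higher (median -0.36). Erap1, which trims peptides, fell 1.82-fold, the peptide-loading chaperone gene Tapbp 1.72-fold and the transporter gene Tap2 1.43-fold. The 16 macrophage and leukocyte markers averaged 5.11 to 5.16 in the untreated and 5.05 to 5.08 in the treated arrays. Of these 13 lay below the median level, the pan-leukocyte gene Ptprc among them (change -0.01), and Cd14, a lipopolysaccharide co-receptor, fell 2.36-fold. The only other call was a fall of the lysosomal glycoprotein gene Cd68 (-0.23, adjusted p = 0.0308), lost without untreated array 1 or 2 or treated array 3, with the compared arrays alone and after quantile normalization. The part of such cells in the interferon result was not tested. In bulk RNA, fewer cells of a type and less RNA per cell cannot be told apart.

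The interferon stimulated response element (GAAA, any 2 bases, then GAAA) lay in 16 of 26 interferon response genes with a promoter (61.5%), against 3.89% of all tested genes. By the same rule, the promoters of the 2 genes with the smallest adjusted p and a match are printed. The matches are in capitals and here run on the opposite strand. Trim30a has more than 1 annotated start, and the window with the match is shown.
Trim30a promoter, chr7:104465144-104465443, minus strand: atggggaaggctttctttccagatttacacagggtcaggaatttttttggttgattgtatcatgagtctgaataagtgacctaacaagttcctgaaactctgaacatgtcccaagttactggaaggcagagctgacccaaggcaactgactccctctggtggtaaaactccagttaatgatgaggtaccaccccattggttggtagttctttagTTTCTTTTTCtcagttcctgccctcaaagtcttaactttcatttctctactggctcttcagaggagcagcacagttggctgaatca
Ifit1 promoter, chr19:34640639-34640938, plus strand: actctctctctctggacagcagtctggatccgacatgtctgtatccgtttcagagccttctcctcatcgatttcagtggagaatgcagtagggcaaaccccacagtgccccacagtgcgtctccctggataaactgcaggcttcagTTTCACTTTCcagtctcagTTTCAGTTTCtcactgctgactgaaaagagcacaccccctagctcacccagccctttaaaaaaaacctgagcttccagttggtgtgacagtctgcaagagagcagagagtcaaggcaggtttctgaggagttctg
Trim30a has 1 match, starting at -36 from the gene start, and Ifit1 has 2, at -104 and -85.

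Contractile and smooth muscle genes rose. Of 31 tested 26 were higher and 1 lower (median 0.37). Myl9, the regulatory light chain of smooth muscle myosin, went from 10.71, 10.57 and 10.70 to 12.23, 12.22 and 12.19 (adjusted p = 5.54e-11). Cnn1, calponin, went from 8.82, 8.91 and 8.76 to 10.10, 10.12 and 10.01. The treated arrays of both lay more than 1 log2 unit above the untreated ones. Tpm2, a tropomyosin, rose 2.26-fold, Tagln (transgelin) 1.79-fold and Lmod1 (leiomodin) 1.77-fold. Acta2 (0.41) and Srf (0.39), named after their values were seen, encode smooth muscle actin and serum response factor, and Acta2 and Actg2 are close enough in sequence that their probe sets may share signal. Markers of other contractile cells were not high throughout. Of 13 cardiomyocyte markers 10 lay below the median level, Tnnt2 (0.78 ± 0.05) and Actc1 (0.40) rose (4 rose without untreated array 3), and the list averaged 5.76 to 5.84 without and 5.98 to 6.00 with PDGF-AB. Of 9 pericyte markers Cspg4 (0.51) and Notch3 (0.30) rose and Anpep (-0.90) and Rgs5 (-0.80) fell, and their average was 5.54 to 5.58 without and 5.48 to 5.50 with PDGF-AB. The part of such cells in the contractile result was not tested.

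A CArG box, the site of serum response factor (CC, then 6 bases that are each A or T, then GG), lay in 7 of 27 contractile genes with a promoter (25.9%), against 1.63% of all tested genes. By the same rule, the promoters of the 2 genes with the smallest adjusted p and a match are printed with the box in capitals. Fhl1 has more than 1 annotated start, and a window with the match is shown.
Myl9 promoter, chr2:156775214-156775513, plus strand: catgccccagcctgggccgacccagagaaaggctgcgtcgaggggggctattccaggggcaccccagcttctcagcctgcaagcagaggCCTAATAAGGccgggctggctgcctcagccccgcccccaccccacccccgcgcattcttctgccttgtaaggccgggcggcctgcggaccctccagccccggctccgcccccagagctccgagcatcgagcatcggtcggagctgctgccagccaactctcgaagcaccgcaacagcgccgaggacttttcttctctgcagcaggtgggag
Fhl1 promoter, chrX:56779433-56779732, plus strand: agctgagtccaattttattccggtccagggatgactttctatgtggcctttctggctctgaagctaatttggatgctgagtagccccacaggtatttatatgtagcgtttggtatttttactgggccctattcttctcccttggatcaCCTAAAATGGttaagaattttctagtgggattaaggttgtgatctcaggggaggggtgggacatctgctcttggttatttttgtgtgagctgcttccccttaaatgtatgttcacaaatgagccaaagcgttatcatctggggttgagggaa
The box starts at -161 from the gene start in Myl9 and at -102 in Fhl1, which encodes a LIM protein of striated and smooth muscle and changed by 0.61.

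Genes of the extracellular matrix moved in both directions by class. The counts of these lists, up to the plasminogen genes, stand beside shares of 10.7% rises and 18.2% falls over all genes tested. For genes with a level no lower than the median the shares were 13.8% and 31%. Of 14 small leucine-rich proteoglycans, which bind collagen fibrils and growth factors, 10 fell and none rose (median -0.46). Ogn went from 10.61, 10.61 and 10.57 to 7.38, 7.37 and 7.41, and the replicates of a group nearly coincided. Lum (lumican) fell 3.19-fold, Omd (osteomodulin) 4.28-fold and Dcn (decorin) 1.99-fold (adjusted p = 5.78e-10). Fibrillar collagens and their assembly genes fell in 16 of 31 cases with 1 rise (median -0.17), such as Col6a2 (2.16-fold), Col6a1 (1.83-fold), Col5a2 (1.44-fold), Col1a1 (1.34-fold) and the prolyl hydroxylase genes P4ha1 (1.38-fold) and P4ha2 (1.4-fold). Of 22 matrix metalloproteinases 8 fell and 2 rose, with Mmp10 (3.83-fold) and the gelatinase gene Mmp2 (1.67-fold) beside Mmp13 and Mmp3 among the falls, and Mmp23 (1.54-fold) and Mmp17 (1.29-fold) the rises.

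Of 20 basement membrane genes 9 rose and 4 fell (median 0.13). The rises included Npnt, Col4a6 (1.49-fold) and Col4a1 (1.34-fold), both chains of type IV collagen. The falls were in laminin chains. Lama4, the α4 chain of vessel and muscle laminins, went from 8.62, 8.69 and 8.53 to 6.26, 6.26 and 6.18, a 5.22-fold fall (adjusted p = 7.83e-12), Lama2 fell 1.93-fold and Lamc1 1.68-fold. Of 31 matricellular and elastic fibre genes 7 rose and 10 fell, a share of falls close to the 31% of all genes with a level no lower than the median, where 24 of them lay. Tnc, tenascin C, rose 1.53-fold, while Ccn3 fell 2.74-fold, Matn2 1.8-fold, Thbs3 1.77-fold and Thbs2 1.53-fold. Of 20 integrin genes 4 rose and 4 fell, a share of falls near the 18.2% of all genes tested. The rises were Itga10, Itga8, Itga11 and Itgb1 (1.27- to 1.53-fold), and the largest fall was that of Itgbl1, an integrin-beta-like protein (4.88-fold). Hyaluronan genes had 5 falls and 1 rise among 12, with Tnfaip6, which links hyaluronan to inter-alpha-inhibitor, down 2.14-fold, the synthase gene Has2 down 1.31-fold and the hyaluronidase gene Cemip up 1.43-fold. Of 21 protease inhibitor, ADAMTS and plasminogen genes 8 rose, led by the urokinase receptor gene Plaur (1.44-fold), and 5 fell, among them Adamts6 (1.42-fold) and Plat (1.26-fold).

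**Figure D3:**
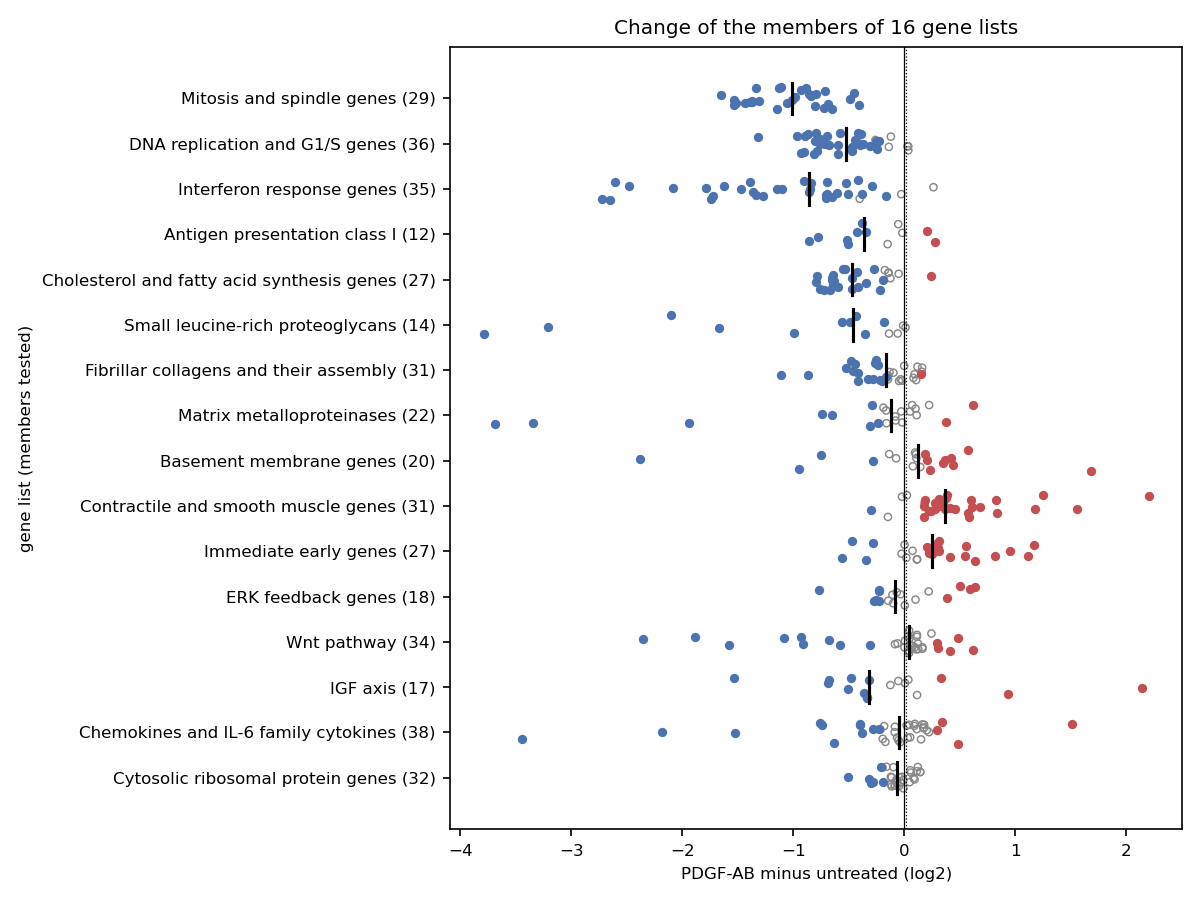
Change with PDGF-AB (log2, x axis) of each tested member of 16 gene lists (y axis, number tested in brackets), red for called higher, blue for called lower and open for not called, with a black bar at each list's median and a dotted line at the median of all genes (0.016). Every mitosis gene lies left of 0, and 26 of 31 contractile genes are called on the right.

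Secreted signals moved in both directions. Beside the counts of these lists, up to the retinoic acid genes, stand shares of 10.7% rises and 18.2% falls over all genes tested. Among genes with a level no lower than the median the shares were 13.8% and 31%. Of 38 chemokine and cytokine genes 11 fell and 4 rose. Ccl8, which attracts monocytes, went from 7.91, 7.74 and 7.46 to 5.63, 5.65 and 5.27, Ccl9 fell 2.87-fold and Cxcl10, an interferon target, 1.67-fold. Il6 went the other way, from 7.07, 7.19 and 7.18 to 8.61, 8.66 and 8.71, and Csf1, the macrophage growth factor, rose 1.39-fold. The groups did not overlap in any of these genes. Of 16 complement genes 4 rose, and 4 fell, with Cd55, C4b (1.94-fold) and C1s1 (1.5-fold) down. The largest rise of that list, Cp (2.25-fold), encodes the copper carrier ceruloplasmin, an acute-phase protein that is no complement component.

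Within the Wnt pathway 9 of 34 genes fell and 5 rose (median 0.045). Of the 34, 17 had a level no lower than the median. The share of falls lay between the 18.2% of all genes and the 31% of genes at such levels. Rspo2, an R-spondin that amplifies Wnt signals, went from 8.32, 8.44 and 8.22 to 6.10, 5.98 and 5.83, a 5.12-fold fall (adjusted p = 1.1e-10), and Rspo3 fell 2.99-fold. Apcdd1, a Wnt inhibitor, fell 3.71-fold, the receptor gene Fzd6 2.12-fold and the ligand gene Wnt5a 1.91-fold. Fzd1 (1.53-fold) and the inhibitor gene Nkd1 (1.33-fold) rose. In the BMP pathway Bmp4 fell 3.77-fold from 10.59 ± 0.04 to 8.68 ± 0.05, and of 25 genes 5 rose and 2 fell (2 rose without treated array 1 and 3 without untreated array 3). Twsg1 (1.36-fold) was the other fall, and the BMP-binding gene Bmper (1.35-fold) was among the rises.

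In the TGF-beta family 4 of 22 genes rose and 6 fell. Of the 22, 20 had a level no lower than the median, where 13.8% of all genes rose and 31% fell. The list was therefore near the background. The activin antagonist gene Fst rose 2.1-fold and the activin chains Inhba (1.54-fold) and Inhbb (1.55-fold) with it, while Tgfbi, a matrix protein that TGF-beta induces, fell 3.78-fold, and the follistatin-like gene Fstl3 1.81-fold. Of 15 Notch genes 3 rose, among them the target Hes1 (1.53-fold) and the ligand Jag1 (1.47-fold), and 2 fell. Of the 17 genes of the IGF axis 9 fell and 3 rose. Igf2 went from 5.61, 5.50 and 5.65 to 7.81, 7.70 and 7.67, and Pappa, the protease that frees IGF from its binding proteins, rose 1.91-fold. Igfbp4, a main substrate of that protease, fell 2.89-fold, Igfbp5 1.61-fold, and the clearance receptor gene Igf2r 1.43-fold.

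Of 35 FGF, HGF, VEGF and EGF family genes 7 rose and 9 fell, and 20 of the 35 had a level no lower than the median. Their share of falls, too, lay between the 18.2% of all genes and the 31% of genes at such levels. Flt1, which encodes VEGF receptor 1, fell 2.68-fold and Fgf18 1.95-fold, while Fgf10 rose 1.7-fold, Fgfr2 1.54-fold and Vegfd 1.43-fold. Semaphorins and their receptors, guidance cues for axons and vessels, fell in 8 of 19 cases and rose in 3, with Sema3c down 3.21-fold, Sema5a 1.84-fold and Sema3a 1.6-fold. Prostaglandin genes had 4 rises and 4 falls among 17. The transporter gene Slco2a1 (1.96-fold), the EP4 receptor gene Ptger4 (1.9-fold) and the synthase gene Ptgs2 (1.35-fold) rose, and the receptors Ptger3 (1.5-fold) and Ptger1 (1.33-fold) fell. Of 16 retinoic acid genes 5 rose (3 without untreated or treated array 1) and 2 fell, and Cyp26b1, which breaks retinoic acid down, rose 2.51-fold.

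Cholesterol and fatty acid synthesis genes fell in 21 of 27 cases with 1 rise (median -0.47). Hmgcs1, the first committed enzyme of the sterol pathway, went from 8.36, 8.27 and 8.35 to 7.72, 7.54 and 7.54 (adjusted p = 5.36e-07). The groups stood clearly apart. Elovl6 fell 1.74-fold, Idi1 1.72-fold, Lss 1.69-fold, Scd2 1.59-fold and Srebf2, the transcription factor of the pathway, 1.57-fold. A sterol regulatory element (TCAC, any base, then CCAC) lay in 1 of 21 promoters of this list (4.76%, against 1.4%). Of 26 glycolysis and hypoxia genes 11 fell and 1 rose. Among the falls were Egln3 (1.76-fold), the phosphofructokinase genes Pfkl (1.68-fold) and Pfkp (1.56-fold), Pdk1 (1.56-fold) and Pgk1 (1.35-fold). Of these 26 genes 22 had a level no lower than the median, where 13.8% of all genes rose and 31% fell. So did 26 of the 27 synthesis genes.

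Other metabolic lists shifted less. Nuclear subunits of oxidative phosphorylation fell in 20 of 43 cases and rose in 3 (median -0.13), Uqcrb (1.42-fold) and Ndufa4 (1.35-fold) among the falls. All 43 had a level no lower than the median, where 13.8% of all genes rose and 31% fell. Of 32 cytosolic ribosomal protein genes, all with a level no lower than the median, 6 fell and none rose, a smaller share than the 31% of all such genes (11 fell with trend and robust variance moderation). Rpl14 (1.42-fold) fell furthest. Stress response genes fell in 14 of 29 cases and rose in 2, all 29 with a level no lower than the median, where 31% fell. The cystine transporter gene Slc7a11 fell 2.07-fold, Trib3 1.7-fold, the amino acid transporter gene Slc7a5 1.47-fold and Asns 1.27-fold, all targets of ATF4, while Ppp1r15a rose 1.21-fold. Of 25 NRF2 and glutathione genes 9 fell and 2 rose, with the peroxidase gene Gpx7 (2.94-fold) and Gsta3 (2.01-fold) down and Nqo1 (1.64-fold) and Gsta4 (1.54-fold) up. Lysosomal genes fell in 9 of 28 cases (5 without untreated array 2 or treated array 3) with none up, such as Ctsf (1.5-fold) and Gla (1.49-fold). That share, too, is close to the 31% of genes at such levels, as is the share of falls among the NRF2 genes.

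Regulators and markers of cell identity changed in part. Tcf21, the transcription factor of epicardium-derived fibroblasts, went from 8.41, 8.38 and 8.35 to 9.44, 9.66 and 9.57, a 2.26-fold rise (adjusted p = 4.29e-08). Bnc1, basonuclin 1, which is known from epicardium and keratinocytes, went from 7.50, 7.39 and 7.62 to 5.80, 5.83 and 5.78. Neither gene's groups overlapped. Tbx5 rose 1.37-fold and Tbx20 fell 1.37-fold, and the 23 cardiac and epicardial factors held 5 rises and 6 falls. Of the 23, 17 had a level no lower than the median, where 13.8% of all genes rose and 31% fell. In all, 3 mesothelial markers fell, Upk3b 3-fold, Upk1b 2.01-fold and Lrrn4 1.35-fold, of 11 epithelial and mesothelial markers whose average was 5.45 to 5.49 without and 5.22 to 5.24 with PDGF-AB, and Msln (0.03) and Wt1 (-0.02) were not called. The part of mesothelial cells in the fall of Bnc1 was not tested.

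Mesenchymal transcription factors held 6 rises and 9 falls among 31. With 23 of the 31 at a level no lower than the median, those shares are near the 13.8% and 31% of all such genes. Zic2 and Pparg (1.97-fold), the adipocyte regulator, were up and Nfatc4 (1.67-fold) and Twist2 (1.47-fold) down. Of 37 Hox genes 5 rose and 1 fell, a share of rises near the 10.7% of all genes tested. The rises were 3 without untreated or treated array 1, 2 without treated array 2 and 1 without untreated array 2. With the compared arrays alone they were 3. Of 20 stromal and progenitor surface genes 4 rose and 8 fell. Mcam (CD146) went from 7.78, 7.90 and 7.79 to 9.29, 9.23 and 9.16 and Alcam rose 1.6-fold, while Cd34 went from 6.27, 6.50 and 6.29 to 4.80, 4.72 and 4.65, Nt5e (CD73) fell 2.52-fold and Anpep (CD13) 1.87-fold. Thy1 was at 5.11 ± 0.13 and 5.19 ± 0.10 (adjusted p = 0.469). Genes of adventitial and resting fibroblasts fell in 9 of 17 cases with 1 rise (median -0.35), Dpt (dermatopontin) by 3.88-fold. Of 22 fat, bone and cartilage genes 6 rose, such as Pth1r (1.5-fold), and 1 fell, Col10a1 (1.58-fold). Of 12 endothelial markers 10 lay below the median level, none rose and 1 fell, Egfl7 (-0.26, adjusted p = 0.01), a call lost without untreated or treated array 1, with the compared arrays alone and after quantile normalization. No Schwann cell marker was called among 6.

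The imprinted Dlk1 to Dio3 domain of chromosome 12 stood out by position and was chosen after its values were seen. It carries Dlk1, Rtl1 and Dio3, expressed from the paternal copy, and Meg3, Rian and a large microRNA cluster, expressed from the maternal copy. Of its 48 genes tested 42 rose and none fell (median 0.72). Meg3, a long non-coding RNA, went from 10.37, 10.43 and 10.19 to 11.27, 11.37 and 11.32, a 1.99-fold rise (adjusted p = 1.95e-07). Rian, the host of small nucleolar RNAs, went from 5.67, 5.95 and 5.78 to 7.18, 6.96 and 6.84 (2.28-fold). In both, the treated arrays lay above all untreated ones. Dlk1, at 6.38 without and 6.48 with PDGF-AB (adjusted p = 0.536), and Dio3, at 4.66 and 4.88 (adjusted p = 0.168), were not called, and Rtl1 changed by 0.34 ± 0.10 (adjusted p = 0.0222). Among 15 imprinted growth genes of the whole genome 6 rose and 2 fell (median 0.18), and besides Igf2, Meg3 and Rian the rises were Peg10 (0.51), Grb10 (0.44) and, named after its value was seen, Ndn (0.54).

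Of the 40 microRNA genes in the domain 38 were called higher (median 0.78, from 0.15 to 1.51), and in 37 every treated array lay above every untreated one. Of 257 microRNA genes elsewhere 51 rose and none fell (median 0.11), a larger share of rises than the 10.7% of all genes tested. Of the 9969 genes below the median level 764 rose and 540 fell. MicroRNA genes thus leaned upward outside the domain too, though less than within it. Mir369 went from 4.89, 5.13 and 5.22 to 6.62, 6.72 and 6.41 (1.51 ± 0.11, adjusted p = 1.93e-08), Mir134 from 7.87, 7.82 and 7.75 to 9.07, 9.03 and 8.90, and Mir382 from 7.13, 7.11 and 6.80 to 8.37, 8.44 and 8.25. These arrays detect the precursor or its host transcript, not the mature microRNA, so the values say nothing of the mature level or of which arm is kept.

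RefSeq gave 76 mature arms for the 40 genes, with 74 distinct seeds (bases 2 to 8). Printed here with the seed in capitals are both arms of Mir369 and Mir134, the 2 with the smallest adjusted p, the 5p arm of Mir382, and the arms that share a seed across genes.
miR-369-5p: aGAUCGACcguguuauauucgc
miR-369-3p: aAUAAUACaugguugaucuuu
miR-134-5p: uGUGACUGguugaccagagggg
miR-134-3p: cUGUGGGCcaccuagucacc
miR-382-5p: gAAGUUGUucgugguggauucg
miR-379-3p: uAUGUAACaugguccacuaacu
miR-411-3p: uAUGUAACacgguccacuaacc
miR-376b-5p: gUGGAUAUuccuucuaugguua
miR-376c-5p: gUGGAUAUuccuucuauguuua
The 3p arms of Mir379 (1.22) and Mir411 (1.00) share 1 seed and the 5p arms of Mir376b (1.19) and Mir376c (0.29) another, and no other seed occurred in more than 1 gene of the cluster. The arrays of Mir376c lay within or below the range of the Y-linked genes. Of the other called microRNA genes, Mir299a (2.88 and 3.12) and Mir381 (2.91 and 3.25) had both group means in that range. The untreated means of Mir379 (3.01), Mir376a (2.76), Mir495 (3.30) and Mir539 (3.15) lay there too.

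**Figure D4:**
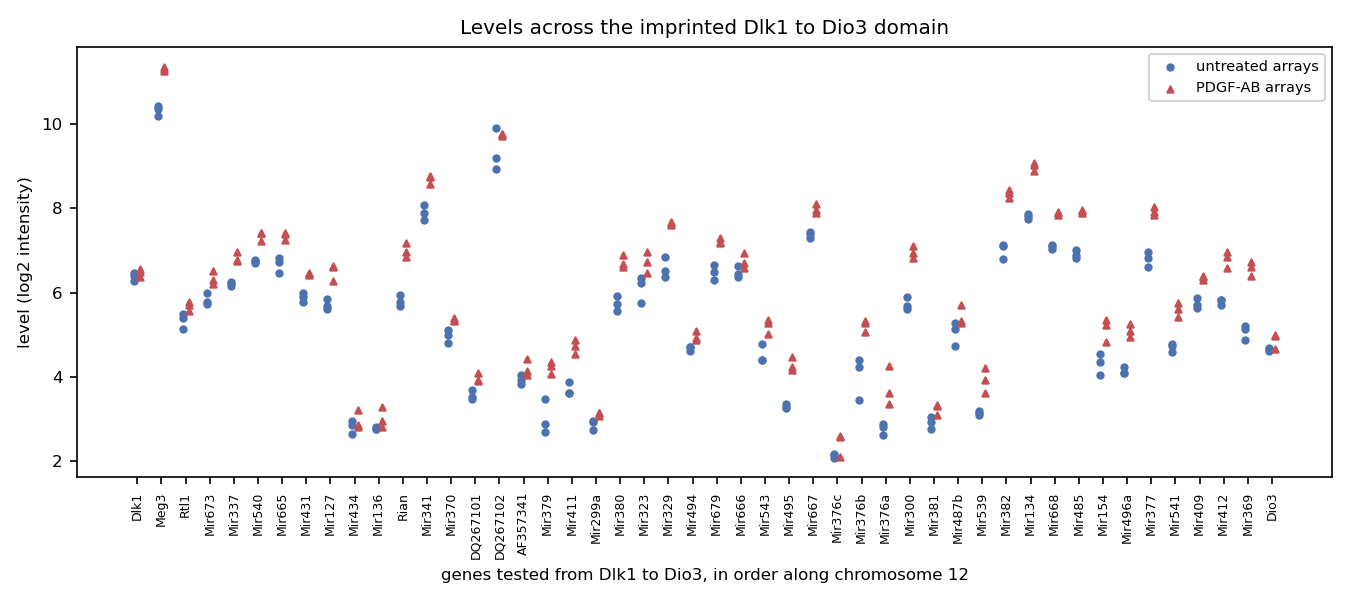
Level (log2 intensity, y axis) of each tested gene from Dlk1 to Dio3 in its order along chromosome 12 (x axis) in each untreated array (circles) and each PDGF-AB array (triangles). Triangles lie above circles for most of the 48 genes, while Dlk1 and Dio3 at the ends overlap.

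Neighbouring genes moved together at other places, also chosen after their values were seen. On chromosome 1 the flavin monooxygenase genes Fmo4, Fmo1 and Fmo2 all fell. Fmo1 went from 8.02, 8.15 and 7.69 to 5.41, 5.31 and 5.52 (-2.54 ± 0.10, adjusted p = 9.61e-12). On chromosome 13 the adjacent proteoglycan genes Ecm2, Aspn, Omd and Ogn fell, 4 of 4. Of 10 genes of the Mmp cluster on chromosome 9 Mmp13, Mmp3 and Mmp10 fell, and the other 7 changed by -0.19 to 0.07. In the Ifi200 cluster of chromosome 1, a family of interferon-induced DNA sensors, 4 of 9 genes fell, and Ifi203 went from 6.94, 6.69 and 7.04 to 4.12, 4.20 and 4.39. In the Clca cluster of chromosome 3, 3 of 6 genes rose, Clca3b by 0.51 beside Clca3a1 and Clca3a2. These families hold close paralogs whose probe sets may share signal.

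Changes also leaned one way on whole chromosomes. Over the 9953 placed genes at or above the median level 13.8% rose and 31% fell. On chromosome 4 the shares were 31.3% and 6.66%, and on chromosome 7 32.8% and 9.03%. The opposite held on chromosome 16, where 6.62% rose and 62.8% fell, and on chromosome 15, where 4.39% rose and 52% fell. Medians of these chromosomes differed from that of all placed genes by 0.20 (4), 0.18 (7), -0.20 (16) and -0.13 (15). With the difference of each gene's chromosome from all placed genes subtracted, the list medians were -1.04 for mitosis, -0.48 for replication, -0.87 for interferon response, 0.38 for contractile and -0.47 for cholesterol synthesis genes. Among the list medians given above, 3 moved by more than 1.5 times. They were those of the imprinted growth genes (0.18 to 0.03), the PDGF ligands and receptors (-0.19 to -0.09) and the adventitial fibroblast genes (-0.35 to -0.23). Medians of other lists moved as much, and some crossed 0, such as those of the CDK inhibitors and D-type cyclins (0.03 to -0.07) and the p53 targets (0.04 to -0.08). Copy number was not measured, and its part in these shifts was not tested.

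**Figure D5:**
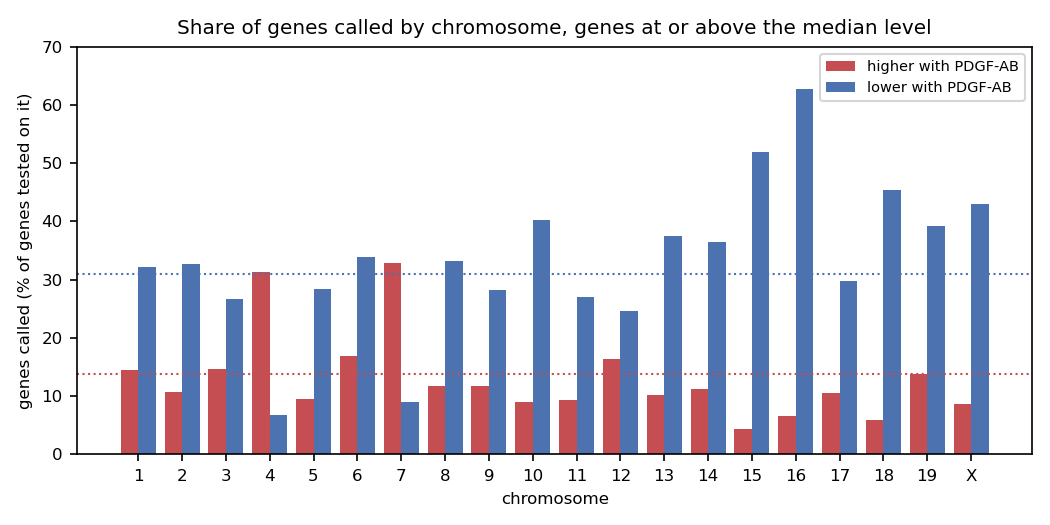
Share of the genes of each chromosome (x axis) called higher (red) or lower (blue) with PDGF-AB, in percent of its tested genes at or above the median level (y axis), with dotted lines at the shares over all chromosomes (13.8% and 31%). Chromosomes 4 and 7 have more rises than falls, and 62.8% of genes on chromosome 16 fell.

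The other groups place these levels, as a description with no test, since comparisons would share arrays. Untreated large colonies at passage 5 had Plk1 at 6.00 and Mki67 at 5.41, near the treated small ones. Treated small colonies at passage 15 had 10.15 and 8.97, above both groups of small colonies at passage 5. The interferon genes of these passage 15 colonies lay closer to the treated than to the untreated small colonies of passage 5, with Oasl2 at 6.14 and Ifit1 at 6.26. Il6 (4.32), Cnn1 (6.11), Tcf21 (4.93) and Meg3 (9.46) of the passage 15 small colonies lay below both passage 5 groups. Aspn (3.93), Mmp13 (4.62) and Lama4 (5.11) also lay far below their untreated level at passage 5, while Ogn (8.96) and Anxa8 (9.19) lay between the treated and untreated levels of passage 5 and Igfbp4 (7.19) close to the untreated one. Some of the falls were also low without PDGF-AB. Untreated large colonies at passage 5 lay below the treated small ones in Ifi203 (3.82), Ifi205 (4.83), Fmo4 (4.64) and Apod (4.95). In the same large colonies Mmp13 (6.54) and Cd55 (6.10) lay between the small groups of passage 5, and Bmp4 (10.76) above both. The median of the microRNA genes of the Dlk1 to Dio3 domain was 5.72 untreated, 6.40 treated, 4.99 treated at passage 15 and 5.24 in large colonies at passage 5. Small colonies of passage 15 were all treated, so passage and treatment cannot be told apart there.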

How the data were processed

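Total RNA was hybridised to Affymetrix whole-transcript arrays, 1 per sample. The deposited values are log2 intensities per probe set made by the authors. RMA and limma appear in the submitters' processing notes, without versions. Array build, background settings and batches are not given in the sources used here. Of 28853 probe sets 21789 named 1 gene, 1621 several and 5443 none. Symbols were updated through the GRCm38.p6 RefSeq table (21698 matched), and the probe set with the highest mean was kept per gene (19938 genes).

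Groups came from the labels. limma 3.58.1 (R 4.3.3) was fitted over 15 arrays and 5 groups (10 residual degrees of freedom), 2-sided, with Benjamini-Hochberg adjustment at 0.05, and the code was tested on simulated data. Array number limits precision.

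The genes and 52 lists (45 functional, 7 of markers, 1099 genes tested) were chosen with earlier results of these data known. Named genes are the 15 largest rises and falls (called, arrays not overlapping, no predicted or microRNA genes), in each list up to 6 with the smallest adjusted p, 4 with the largest change and 3 against its majority, and fixed genes. Uncalled members are named with values, and exceptions are marked.

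The alternatives were other scalings (quantile normalization was added after seeing the data), a level filter, probe set rules, variance settings, array weights, a replicate block, a 2-fold minimum and single arrays left out.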

Additional observations from a re-analysis of the deposited data

How the results depend on the processing

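No named gene reversed its direction under 16 alternatives (the 2-fold minimum aside), and 284 of the 323 called among 329 kept their call in each that tested them. The filter on the median level left 47 untested. The 5772 calls became 4461 to 5687 with 1 array left out (1572 to 2083 higher, 2889 to 3604 lower) and 5243 to 7185 otherwise. With a minimum of 2-fold, 278 genes were left (82 higher, 196 lower), of which 80 were listed genes, and the calls were 15 in mitosis, 1 in replication, 16 in interferon response, 4 in contractile, 4 in proteoglycan and 0 in cholesterol synthesis genes (20 to 22 there with any fold and 1 array left out), and 13 in the Dlk1 to Dio3 domain. Leaving out genes below the median level removed members, so that 17 interferon response genes and 16 genes of the domain were called. With 1 array left out, listed genes called were 483 to 546, mitosis genes 28 to 29, replication genes 26 to 29, interferon response genes 31 to 32, contractile genes 22 to 25, proteoglycans 9 to 10 and genes of the domain 37 to 40. Replicate numbers did not pair the arrays, since same-numbered arrays correlated at 0.0026, 0.025 and 0.20 after group means were subtracted and 2 of 6 matched best with their own number. The fit with the replicate block called 5510 genes (2085 higher, 3425 lower), 3 of the Hox genes higher, and neither Pdgfrb (adjusted p = 0.0515) nor Egfl7. Signal over background limits genes near the Y-linked range, and durations, batches and the origin of replicates are unknown.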
